A study of Mus musculus with 2 samples.

Results

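Glutamate, GABA and glycine are the fast transmitters of the cerebellum, and the subunits of their receptors were the subject here: 50 of the 32285 genes in the matrices, taken by gene symbol alone. They were the AMPA (Gria), kainate (Grik) and NMDA (Grin) subunits, the metabotropic glutamate receptors (Grm), the GABA-A (Gabr), GABA-B (Gabbr) and glycine (Glra, Glrb) receptor subunits. The data were 2 single-cell libraries (10X Genomics 3' chemistry) of papain-dissociated lobules III and IV of the mouse cerebellum at postnatal day 1. One came from Cxcr4+/1013 mice (mutant) and one from Cxcr4+/+ littermates (control), with the strain given as B6.129S2-Cxcr4tm1.1Bala. The 1013 allele encodes CXCR4, the receptor of the chemokine CXCL12, with a truncated C-terminal tail, and it is present in every cell of the animal. The genotype label reads Cxcr4+/1013, whereas the protocol text reads Cxcr4+/-. How many animals went into a library is not stated, although female and male cells were present in both.

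Ionotropic glutamate receptors are tetramers. AMPA receptors carry fast excitation, and those that contain GluA2 (Gria2) pass little calcium. NMDA receptors pair the obligatory GluN1 (Grin1) with GluN2 subunits that set their kinetics, and GluN2B (Grin2b) is the juvenile form in granule cells. GABA-A receptors are pentamers, usually of alpha, beta and gamma subunits, and in the newborn brain the immature chloride gradient lets GABA and glycine depolarise neurons. In the mature cerebellum granule cells express alpha6 (Gabra6), and Bergmann glia use AMPA receptors that lack GluA2.

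After filtering, 7568 mutant and 7712 control cells were kept, with medians of 13292 and 11912 UMIs per cell, and 17 barcodes occurred in both libraries. Cxcr4 itself was at 24.3 CPM (the usual depth-scaled UMI count) in the mutant library and 28.1 CPM in the control library, but a 3' count cannot read the allele. Cells were grouped into 38 clusters without the 50 member genes, and clusters were given names of the form "X-like" from marker lists. Of the resulting classes, 14 had at least 30 cells in each library. With 1 library per genotype there is no test: intervals in the text are 95% exact intervals that cover counting error alone, and neither animals nor replicate libraries enter them. A member was counted as past 1.5-fold when it had at least 50 UMIs over both libraries and differed that much, and that count is a description by size. Because 3' counts are not per length, levels are compared for the same gene between classes, or as a subunit's share of its family's UMIs, never between genes.

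Of the 50 genes, 44 had at least 50 UMIs over both libraries. The other 6 were Gabra6 (20 UMIs), Grin2c (23), Glra4 (42), Gabrr3 (8), Grm6 (5) and Gabrp (2). Gabra6 and Grin2c are an alpha and a GluN2 subunit of mature granule cells, and at this age they were close to 0 in both libraries. Of the 44, 31 had their highest level in the same class in both libraries, and for 21 of these the leading class was separated from the next beyond counting error in both. Unipolar brush-like cells led for 7 of the 31 genes and Purkinje-like cells for 5.

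**Figure D1:**
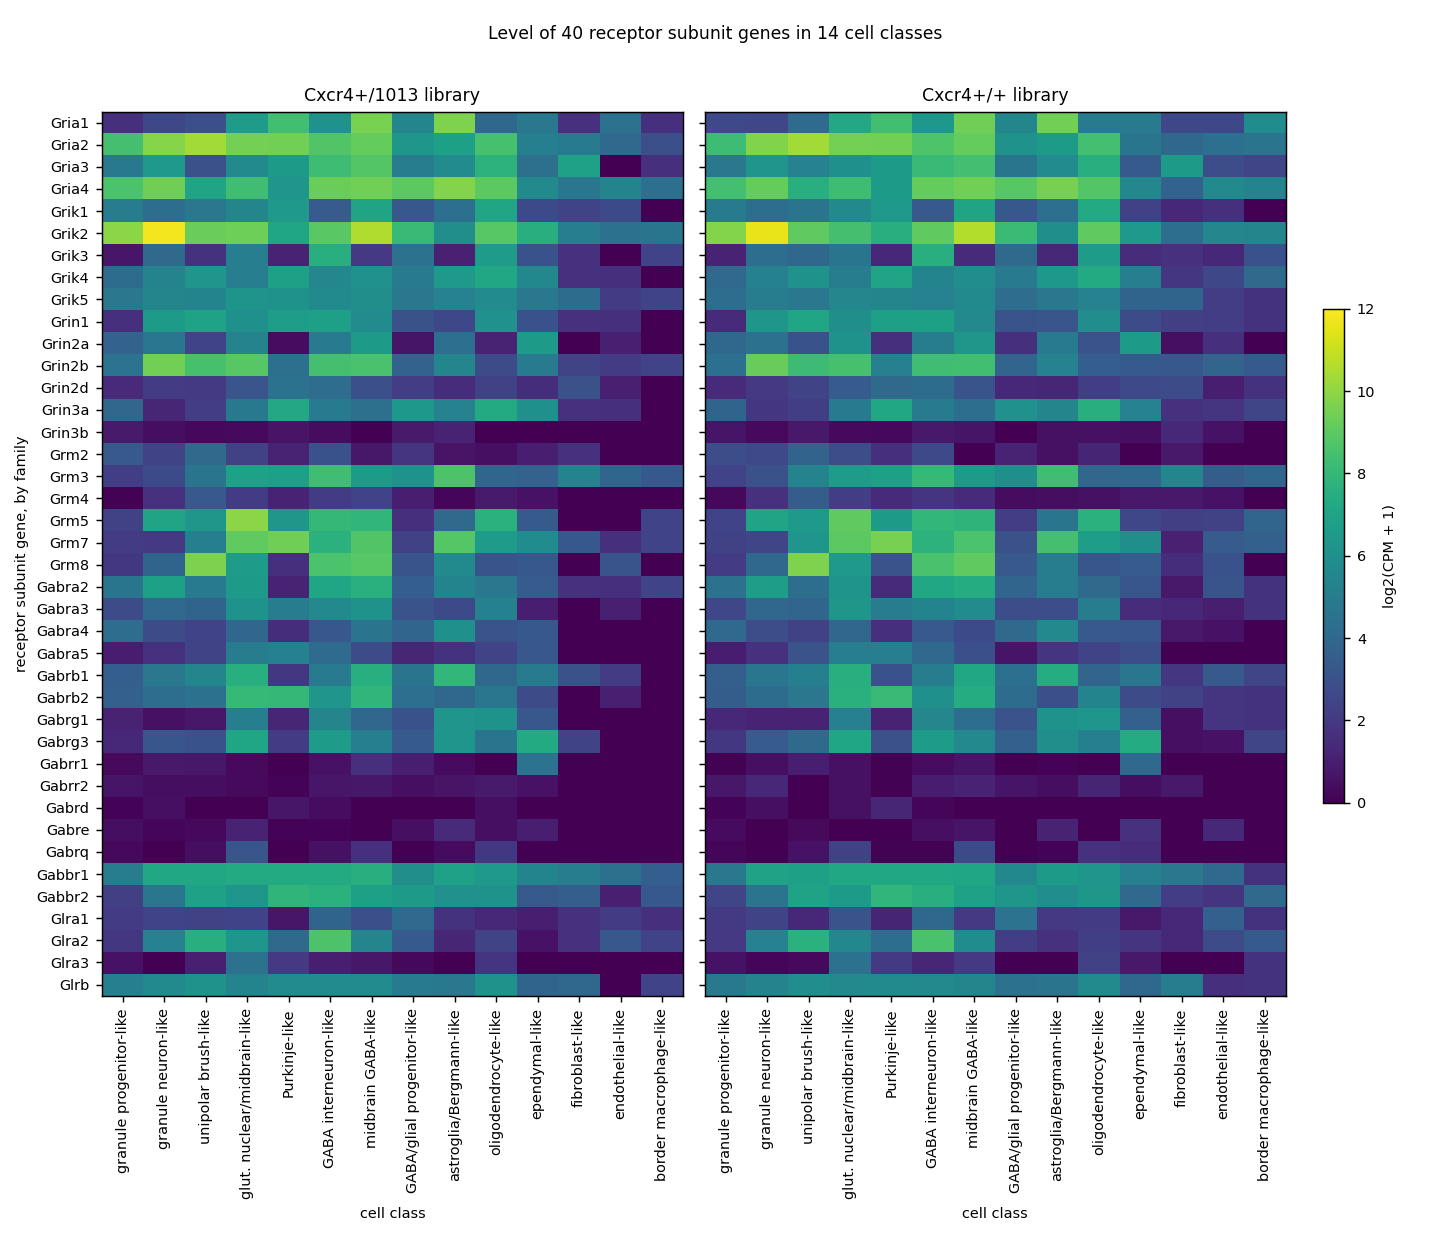
Levels of 40 receptor subunit genes with at least 50 UMIs in 14 cell classes, as log2(CPM + 1) by colour, in the Cxcr4+/1013 library (left) and the Cxcr4+/+ library (right). Rows are genes by family and columns are cell classes. The 2 panels share most of their pattern: Grik2 is brightest in granule neuron-like cells, Gria1 and Gria4 in astroglia-like cells, and Grm8 in unipolar brush-like cells.

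Promoter sequences are shown for genes whose class pattern is described below. RefSeq (GRCm38.p6) gave 43 promoters for 36 of the members, each 250 bases before to 50 after a transcription start. They were searched on both strands for the 2 parts of the RE1 motif, the site of the neuronal repressor REST, whose consensus parts are TTCAGCAC and GGACAGC. The first part occurred in 4.65% of member promoters and 1.17% of all 32851 promoters. The second occurred in 9.30% of member promoters and 6.56% of all. Both parts lay on 1 strand within 10 bases of each other in 17 of the 32851 promoters (0.0517%), and 2 of those belonged to members: Glra2, the alpha2 glycine receptor subunit, and Grm2, a presynaptic mGlu receptor. In Glra2 2 bases lay between the parts, and in Grm2 8 bases did. Both are printed with the motif letters in capitals (in Glra2 the parts lie on the opposite strand and read as their reverse complement). Gria2 is shown beside them because only the second part matched exactly there, on the opposite strand. Shortly after that part, the Gria2 letters differ from the reverse complement of the first part at 1 base. The search took exact letters only, so it cannot show that Gria2 lacks the motif. A letter match is a description and not a binding site.
Glra2, chrX:165327344-165327643, minus strand: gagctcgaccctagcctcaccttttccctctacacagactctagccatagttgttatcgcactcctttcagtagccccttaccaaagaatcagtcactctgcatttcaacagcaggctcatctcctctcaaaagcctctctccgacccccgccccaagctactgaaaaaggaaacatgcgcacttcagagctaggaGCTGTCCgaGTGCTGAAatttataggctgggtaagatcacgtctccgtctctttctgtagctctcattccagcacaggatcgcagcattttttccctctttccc
Grm2, chr9:106656060-106656359, minus strand: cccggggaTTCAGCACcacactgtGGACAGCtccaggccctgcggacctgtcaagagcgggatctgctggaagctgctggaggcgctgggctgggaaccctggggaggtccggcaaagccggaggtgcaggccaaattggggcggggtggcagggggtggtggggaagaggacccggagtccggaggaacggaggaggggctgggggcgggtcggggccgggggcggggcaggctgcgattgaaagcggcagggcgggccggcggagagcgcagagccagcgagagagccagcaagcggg
Gria2, chr3:80802786-80803085, minus strand: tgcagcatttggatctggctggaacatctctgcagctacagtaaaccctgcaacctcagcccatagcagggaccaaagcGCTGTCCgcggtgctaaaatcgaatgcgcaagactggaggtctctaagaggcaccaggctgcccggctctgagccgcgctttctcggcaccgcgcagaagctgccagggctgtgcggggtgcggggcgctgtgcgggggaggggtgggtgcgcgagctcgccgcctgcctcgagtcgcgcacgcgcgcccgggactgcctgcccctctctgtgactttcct

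A second pair is shown for its position. Gabra4 and Gabrb1, the alpha4 and beta1 subunits of the GABA-A receptor, stand head to head on chromosome 5. In the GENCODE annotation their 5' ends overlap by 196 bases on opposite strands. The windows use RefSeq starts instead, and the Gabrb1 start of the printed window lies upstream of its GENCODE start. CG pairs are in capitals: the Gabra4 window held 12 and the upstream Gabrb1 window 25, against a median of 11 over member promoters and 7 over all promoters. A second Gabrb1 window, starting at position 71699682 of the same chromosome, held 9 and is not printed. The E-box letters CANNTG, the core bound by basic helix-loop-helix factors such as ATOH1, occurred in 51.2% of member promoters and 72.3% of all promoters.
Gabra4, chr5:71658259-71658558, minus strand: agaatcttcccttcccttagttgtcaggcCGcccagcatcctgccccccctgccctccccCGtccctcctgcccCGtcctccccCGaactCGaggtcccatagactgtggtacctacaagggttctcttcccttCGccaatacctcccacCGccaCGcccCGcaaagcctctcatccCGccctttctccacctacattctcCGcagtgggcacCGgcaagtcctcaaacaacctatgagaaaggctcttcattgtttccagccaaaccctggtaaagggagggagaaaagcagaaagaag
Gabrb1, chr5:71657671-71657970, plus strand: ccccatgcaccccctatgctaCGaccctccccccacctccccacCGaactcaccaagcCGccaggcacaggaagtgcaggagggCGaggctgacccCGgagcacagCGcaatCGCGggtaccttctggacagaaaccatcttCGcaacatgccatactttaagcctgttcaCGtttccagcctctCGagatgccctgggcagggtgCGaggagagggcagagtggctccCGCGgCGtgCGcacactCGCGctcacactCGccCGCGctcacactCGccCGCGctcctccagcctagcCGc

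Among the AMPA subunits, Gria2 was highest in unipolar brush-like cells, excitatory interneurons of the granular layer and their rhombic lip precursors, at 1286 CPM in the mutant and 1291 CPM in the control library. Granule neuron-like cells followed at 918 CPM in the mutant and 836 CPM in the control library, and Purkinje-like cells had 696 and 686 CPM. Astroglia-like cells, a class that includes Bergmann glia, had 111 CPM of Gria2 in the mutant and 92.2 CPM in the control library. The same astroglia-like cells led for both Gria1 (GluA1; 810 CPM in mutant, 701 CPM in control) and Gria4 (GluA4; 885 CPM in mutant, 754 CPM in control). For Gria1 they were not separated from midbrain-type GABAergic-like neurons, which had 778 CPM in the mutant and 670 CPM in the control library. Gria3, on the X chromosome, was led by midbrain-type GABAergic-like neurons at 440 CPM in the mutant and 335 CPM in the control library.

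As a share of all AMPA subunit UMIs, Gria2 made up 90.2% in mutant and 84.3% in control unipolar brush-like cells. The share was 58.5% in mutant and 57.3% in control Purkinje-like cells, and 54.2% and 56.1% in granule neuron-like cells. GABAergic interneuron-like cells had 30.1% in the mutant and 30.5% in the control library. Oligodendrocyte lineage-like cells, with 32.8% and 33.8%, stood above midbrain-type GABAergic-like neurons, with 23.3% and 25.02%. In astroglia-like cells Gria2 was 5.97% of AMPA UMIs in the mutant and 5.76% in the control library, the rest being mainly Gria1 (43.5% and 43.8%) and Gria4 (47.6% and 47.1%). The order of these 7 classes was the same in both libraries. In GABAergic or glial progenitor-like cells Gria4 alone held 76.6% in the mutant and 77.2% in the control library, and in fibroblast-like cells Gria3 held 67.1% and 73.9%.

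Within the astroglia-like class the AMPA mixture differed between clusters, of which 3 of 4 are described. A cluster led by Gdf10, a Bergmann glia gene, held 160 mutant and 244 control cells and had Gria1 at 1835 CPM in the mutant and 1404 CPM in the control library. A second Gdf10 cluster (49 mutant and 128 control cells) had 814 CPM of Gria1 in both libraries. A cluster marked by Gfap and Aqp4, genes of fibrous astroglia, had 168 CPM of Gria1 in the mutant and 190 CPM in the control library (135 and 205 cells). In this Gfap cluster Gria4 made up 72.2% of AMPA UMIs in the mutant and 66.1% in the control library. Gria2 stayed low throughout, between 3.37% and 6.97% of AMPA UMIs over the 3 clusters and both libraries. The clusters also differed in Grm7, a presynaptic mGlu receptor: the Gfap cluster had 879 CPM in the mutant and 813 CPM in the control library, against 157 and 139 CPM in the larger Gdf10 cluster.

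**Figure D2:**
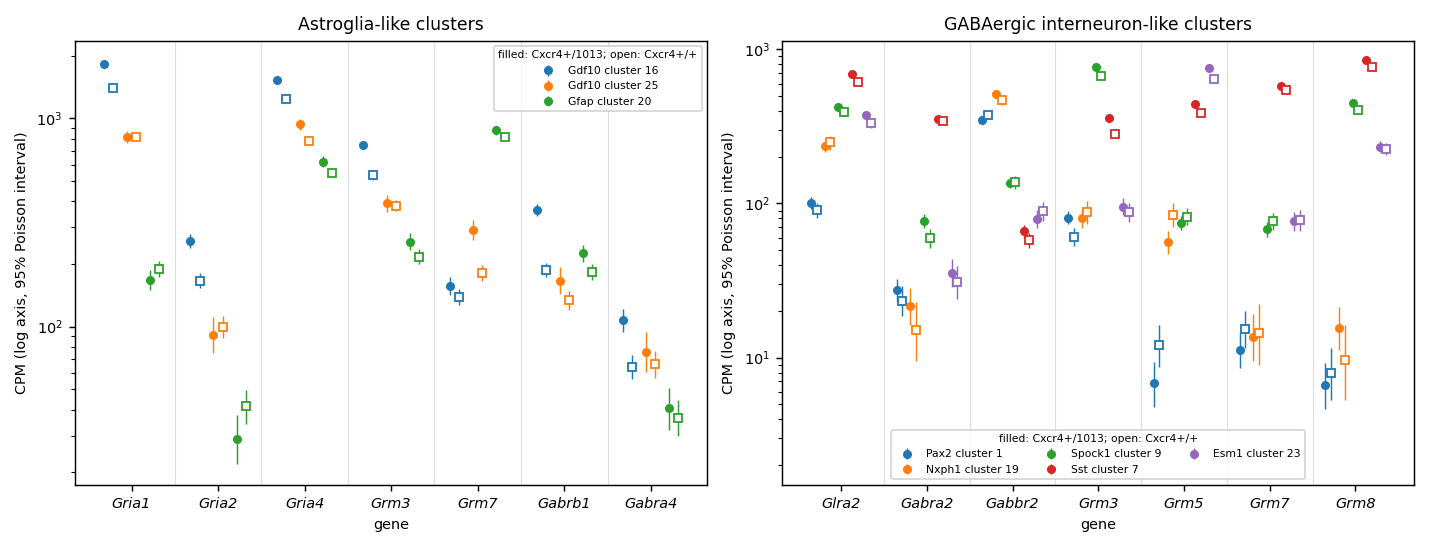
Levels of 7 member genes in 3 astroglia-like clusters (left) and of 7 member genes in 5 GABAergic interneuron-like clusters (right), as CPM on a log axis. Filled circles are the Cxcr4+/1013 library, open squares the Cxcr4+/+ library and bars 95% Poisson intervals. Gria1 separates the Gdf10 clusters from the Gfap cluster, Grm7 runs the other way, and Glra2, Gabra2 and the Grm genes differ widely between interneuron-like clusters.

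Among the kainate subunits, Grik2 (GluK2) was the granule cell gene. It stood at 3520 CPM in mutant and 3114 CPM in control granule neuron-like cells, against 979 and 879 CPM in granule progenitor-like cells and 60.6 and 61.5 CPM in astroglia-like cells. Midbrain-type GABAergic-like neurons came next, with 1521 CPM in the mutant and 1554 CPM in the control library. Grik2 was 96.7% of kainate UMIs in mutant and 96.6% in control granule neuron-like cells. It was 33.1% in mutant and 42.0% in control Purkinje-like cells. In the annotation Grik2 shares its strand with the gene models Gm26543 and Gm47018, so reads between them could be divided. Grik3 (GluK3) was led by GABAergic interneuron-like cells (189 CPM in mutant, 181 CPM in control), with oligodendrocyte lineage-like cells next (96.0 and 95.1 CPM). Grik4, a high-affinity subunit that needs a partner such as GluK2, was highest in oligodendrocyte lineage-like cells at 148 CPM in the mutant and 160 CPM in the control library. Grik1 also had its highest level there, with 134 CPM in the mutant and 159 CPM in the control library, not separated from midbrain-type GABAergic-like neurons (128.5 CPM in mutant, 127.5 CPM in control).

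For the NMDA receptor, the obligatory Grin1 was near 0 in progenitors and present in neurons. It was at 2.10 CPM in mutant and 1.80 CPM in control granule progenitor-like cells, and at 121 and 131 CPM in unipolar brush-like cells, 111 and 112 CPM in interneuron-like cells and 102 and 114 CPM in Purkinje-like cells. Grin2b was led by granule neuron-like cells, with 688 CPM in the mutant and 587 CPM in the control library, and made up 96.0% of GluN2 UMIs there in both. Interneuron-like cells were similar, with a Grin2b share of 87.8% in the mutant and 86.4% in the control library. Purkinje-like cells differed from both: Grin2d (GluN2D, the slow juvenile subunit) made up 50.2% of their GluN2 UMIs in the mutant and 30.02% in the control library. Ependymal-like cells, the ciliated lining of the ventricle, had mostly Grin2a among the GluN2 genes, at 74.2% in the mutant and 85.7% in the control library. Grin3a, which lowers calcium entry through NMDA receptors, was highest in oligodendrocyte lineage-like cells at 159 CPM in the mutant and 189 CPM in the control library, followed by Purkinje-like cells at 152 and 144 CPM. Ppp3r2 lies within Grin3a on the same strand in the annotation.

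Among the metabotropic receptors, unipolar brush-like cells led for Grm8, a group III presynaptic receptor, with 794 CPM in the mutant and 808 CPM in the control library. They had the highest level of Grm2 too, at 16.9 CPM in the mutant and 13.3 CPM in the control library. In these cells Grm8 held 42.4% of the mGlu UMIs in the mutant and 45.1% in the control library. The 2 unipolar brush-like clusters differed in Grik2, which was at 223 CPM in the mutant and 241 CPM in the control library in the cluster marked by Calb2, against 1042 and 988 CPM in the cluster marked by Grp and Tac2.

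Grm7 led in Purkinje-like cells (681 CPM in mutant, 740 CPM in control) and made up 59.6% of their mGlu UMIs in the mutant and 60.6% in the control library. Grm3 (mGluR3), a glial receptor in the adult brain, was highest in astroglia-like cells at 400 CPM in the mutant and 322 CPM in the control library, and GABAergic interneuron-like cells were next at 314 and 265 CPM. Grm5 (mGluR5) was led by glutamatergic nuclear or midbrain-like neurons with 976 CPM in the mutant and 541 CPM in the control library. In oligodendrocyte lineage-like cells Grm5 was the main mGlu gene, 62.6% of the family in the mutant and 60.2% in the control library. Those cells held a precursor cluster marked by Cspg4 and a smaller cluster marked by Enpp6, a gene of newly formed oligodendrocytes. Grm5 stood at 260 CPM in mutant and 230 CPM in control precursor cells, and at 58.9 and 52.3 CPM in the Enpp6 cluster. Grin3a showed the same order, with 211 CPM in the mutant and 216 CPM in the control library in precursor cells, against 33.6 and 43.6 CPM in the Enpp6 cluster.

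The GABA-A alpha genes differed between the classes. Gabra2 was near 0 in Purkinje-like cells, with 1.28 CPM in the mutant and 1.71 CPM in the control library, but was 81.4% of alpha UMIs in mutant and 79.1% in control granule neuron-like cells. Interneuron-like cells were mixed, with Gabra2 at 58.2% in the mutant and 60.4% in the control library. Astroglia-like cells expressed mainly Gabra4, which formed 56.1% of their alpha UMIs in the mutant and 53.2% in the control library, at 64.7 and 48.8 CPM. Granule progenitor-like cells had 18.4 CPM of Gabra4 in the mutant and 15.98 CPM in the control library. Oligodendrocyte lineage-like cells had mainly Gabra3, at 44.5% in the mutant and 46.6% in the control library.

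The beta and gamma subunits divided in a like way. Gabrb1 was 83.8% of beta UMIs in mutant and 79.8% in control astroglia-like cells. Gabrb2 was 50.9% in mutant and 52.1% in control Purkinje-like cells. Both classes thus had another leading beta gene. The gamma UMIs of astroglia-like cells were divided between Gabrg1 (48.5% and 51.9%) and Gabrg3 (50.5% and 46.4%). Ependymal-like cells had mostly Gabrg3, at 92.7% in the mutant and 90.9% in the control library. Gabrr1, a rho subunit best known from the retina, was at 23.02 CPM in mutant and 15.9 CPM in control ependymal-like cells, and the next class was at 2.19 CPM in the mutant and 1.001 CPM in the control library. The remaining GABA-A genes that passed the minimum (Gabrr2, Gabrd, Gabre, Gabrq) were below 8 CPM in every class of both libraries.

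Several of these genes lie in chromosomal clusters, and pairs of neighbours within 1 Mb were compared, with no comparison of pairs lying apart. Over the 14 classes, Pearson's r of log2(CPM + 1) between the head-to-head Gabra4 and Gabrb1 was 0.83 in the mutant and 0.69 in the control library. In the same chromosome 5 cluster, Gabra2 and Gabrb1 gave 0.77 in the mutant and 0.79 in the control library. Gabrg3 and Gabra5 on chromosome 7 gave 0.64 and 0.68, and Gria2 and Glrb on chromosome 3 gave 0.85 and 0.75. Other neighbours gave low values: Gabre and Gabra3 on the X chromosome 0.087 in the mutant and -0.40 in the control library, Gabre and Gabrq 0.34 and 0.11, and Gabrr2 and Gabrr1 on chromosome 4 0.34 and -0.062. Each of these pairs held a gene of few UMIs over both libraries: Gabre had 76, Gabrq 107, Gabrr2 118 and Gabrr1 155. Their low values therefore cannot show whether the neighbours vary together. The classes of a library share its depth and free RNA, so these values are descriptions.

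The GABA-B receptor needs both of its subunits. Gabbr2, the signalling subunit, led in Purkinje-like cells with 234 CPM in the mutant and 239 CPM in the control library, and interneuron-like cells had 201 and 188 CPM. Gabbr1, the ligand-binding subunit, was more even: the highest class was midbrain-type GABAergic-like neurons in the mutant library (185 CPM) and glutamatergic nuclear or midbrain-like neurons in the control library (148 CPM), neither separated from the next class.

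Among the glycine receptor genes alpha2, which precedes alpha1 in development, was the main alpha subunit. Glra2 was led by GABAergic interneuron-like cells with 397 CPM in the mutant and 377 CPM in the control library, and unipolar brush-like cells followed with 188 and 200 CPM. It held 96.4% of glycine alpha UMIs in mutant and 95.8% in control interneuron-like cells. Glra1, the adult alpha subunit, was a minor gene that peaked among GABAergic or glial progenitor-like cells, with 16.4 CPM in the mutant and 22.6 CPM in the control library. Interneuron-like cells came next at 13.4 CPM in the mutant library, where the classes were not separated, and 15.1 CPM in the control library. Glra3 was found mainly in glutamatergic nuclear or midbrain-like neurons, at 21.8 CPM in the mutant and 21.2 CPM in the control library. Glrb, the beta subunit that links the receptor to gephyrin, was spread over classes, with 71.3 CPM in mutant and 58.6 CPM in control unipolar brush-like cells and no separation from oligodendrocyte lineage-like cells in either library.

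The interneuron-like clusters, of which 5 of 6 are described, differed in their receptor genes. The largest was marked by Pax2 and Slc6a5, genes of young GABAergic and glycinergic interneurons, and held 574 mutant and 397 control cells. There Glra2 was at 101 CPM in the mutant and 90.2 CPM in the control library, and Grm5 at 6.80 and 11.99 CPM. A cluster marked by Sst (344 mutant and 309 control cells) had 695 CPM of Glra2 in the mutant and 617 CPM in the control library. The Sst cluster also had Grm8 at 853 CPM in the mutant and 772 CPM in the control library, and Gabra2 at 355 and 344 CPM. Gabbr2 ran the other way, highest in a cluster marked by Nxph1 and Kit with 516 CPM in the mutant and 472 CPM in the control library, next in the Pax2 cluster with 349 and 374 CPM. Grm3 was highest in a Spock1 cluster, at 773 CPM in the mutant and 676 CPM in the control library, and Grm5 in a small cluster marked by Esm1, at 762 and 647 CPM.

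Granule lineage cells were next divided by marker UMIs into gates: dividing Atoh1 cells (Atoh1 with Mki67 or Top2a; 789 mutant and 634 control cells), Atoh1 cells without those UMIs (112 and 109), cells with Cntn2 or Nhlh1 but no Atoh1 (893 and 627), and cells with none of these (361 and 344). Atoh1 marks granule cell progenitors and Cntn2 and Nhlh1 mark newborn granule neurons. A gate is a range of states cut from few UMIs, and median depth fell along it, from 18881 mutant and 17670 control UMIs in dividing cells to 10534 and 10631 in the last gate. Some receptor genes differed more than 10-fold along this order. Grin2b was at 18.4, 249, 640 and 780 CPM over the 4 gates in the mutant library, and at 15.3, 94.7, 527 and 636 CPM in the control library. Grin1 followed the same course, with 2.43, 25.2, 75.5 and 145 CPM in the mutant and 1.88, 10.4, 64.9 and 108 CPM in the control library.

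Grik2 was already high in dividing cells, at 869 CPM in the mutant and 818 CPM in the control library, and reached 3498 and 3006 CPM in Cntn2 or Nhlh1 cells. Gria2 stood at 337 CPM in mutant and 305 CPM in control dividing cells and at 1022 and 916 CPM in the last gate. For Grm5, Cntn2 or Nhlh1 cells had 95.2 CPM in the mutant and 92.7 CPM in the control library, and the last gate had 217 and 180 CPM. Gabra2 was higher in each later gate in both libraries. Grin3a and Gabra4 were lower in the last gate than in the first. Grin3a was at 15.4, 13.9, 2.21 and 2.71 CPM over the gates in the mutant and at 15.5, 11.2, 2.19 and 5.25 CPM in the control library, and Gabra4 was at 20.2, 13.2, 4.61 and 8.95 CPM in the mutant and at 17.1, 16.4, 4.37 and 9.88 CPM in the control library.

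**Figure D3:**
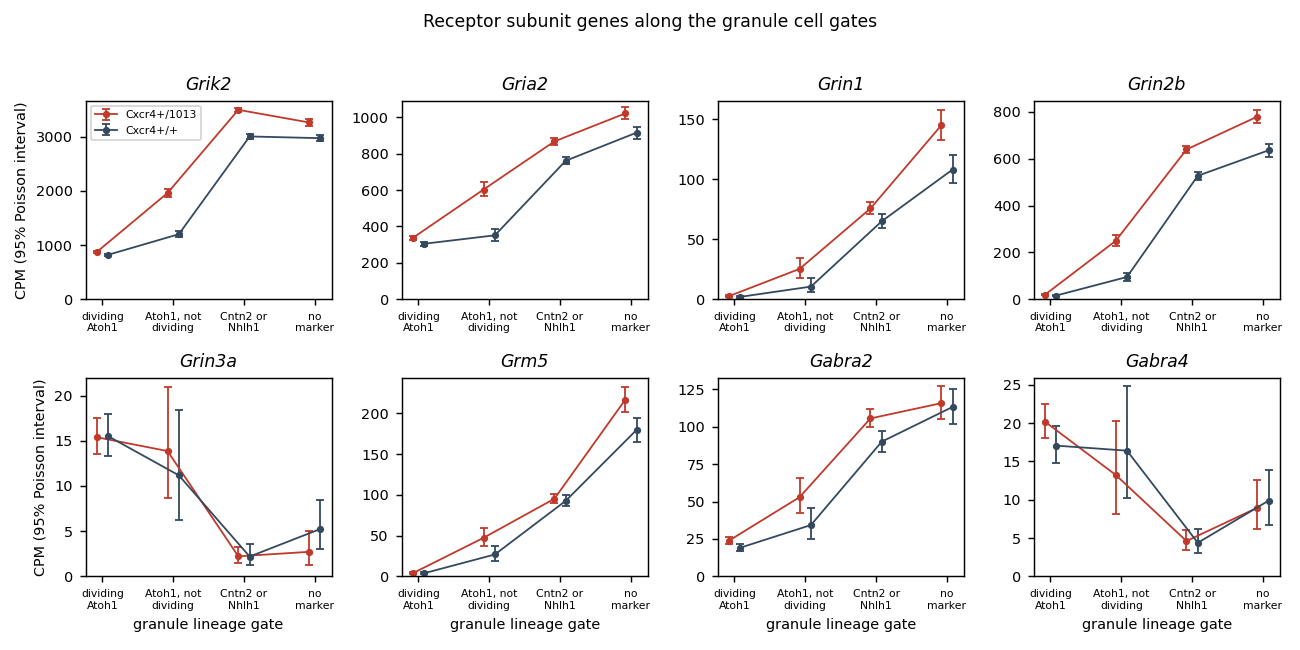
Levels of 8 receptor genes (CPM, 95% Poisson intervals) in the 4 granule lineage gates, from dividing Atoh1 cells to cells with none of the gate markers, in the Cxcr4+/1013 library (red) and the Cxcr4+/+ library (blue). Grik2, Gria2, Grin1, Grin2b, Grm5 and Gabra2 are higher in the last gate than in the first, and Grin3a and Gabra4 are lower.

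Between the genotypes, the gate of Atoh1 cells without mitotic UMIs differed from the others, a result singled out after its values were seen. There 13 of 16 members with at least 50 UMIs were at least 1.5-fold higher in the mutant library and none was lower, whereas 14.6% of all 7684 genes passed that fold in either direction. The median log2 ratio was 0.82 over the members and 0.05 over all genes. Grin2b had 249 CPM in the mutant and 94.7 CPM in the control library, a ratio of 2.63 (interval 2.15 to 3.24). Grik2 had 1961 CPM in the mutant and 1200 CPM in the control library, a ratio of 1.64 (1.54 to 1.74). Granule neuron markers moved with the receptors in this gate: all 10 were higher in the mutant, their summed level being 3586 CPM in the mutant and 2418 CPM in the control library, while Atoh1 was at 134 and 161 CPM. Of the gate's cells, 63.4% in the mutant and 76.2% in the control library fell in the granule progenitor-like class. The count depended on how the gate was drawn: 2 of 9 members passed within the progenitor-like class (9.75% of genes), 8 of 11 within the granule neuron-like class (41 mutant and 26 control cells; 25.1% of genes) and 0 of 6 with at least 2 Atoh1 UMIs (12.8% of genes). Grin2b in the gate's progenitor-like cells was at 6.15 CPM in the mutant and 16.3 CPM in the control library (6 and 17 UMIs), and in its granule neuron-like cells at 638 and 368 CPM. The part of neuronal maturation within the gate in the receptor ratios was not tested.

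In the other gates few members passed. In dividing Atoh1 cells 0 of 32 members were higher and 3 lower (Gabbr2, Gabrg3 and Gria1), against 4.1% of all genes in either direction. In Cntn2 or Nhlh1 cells 0 of 31 were higher and 2 lower (Grik3 and Grm8; 5.31% of genes), and in cells with none of the markers Gria1 was higher and Grm7 lower among 28 members (5.62% of genes).

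Within whole classes, most receptor genes were close to equal in the libraries. In GABAergic interneuron-like cells 0 of 37 members passed 1.5-fold, against 4.07% of all genes, and the median log2 ratio of members was 0.08. In granule neuron-like cells 3 of 36 passed (4.47% of genes), all lower in the mutant, among them Grin3a with 1.48 CPM in the mutant and 2.70 CPM in the control library (25 and 32 UMIs), and Grm7 with 2.96 and 4.73 CPM. In male cells alone the log2 ratio of Grin3a turned to 0.88. Both were at low levels for their genes, from 25 to 56 UMIs in a library. In granule progenitor-like cells 4 of 34 passed (4.51% of genes). Grm2 was at 9.10 CPM in the mutant and 6.03 CPM in the control library (ratio 1.51, interval 1.22 to 1.88). Its log2 ratio of 0.59 was 0.54 with TMM scaling and with DESeq2 size factors, which is under 1.5-fold. Gria1 was lower there, at 2.06 CPM in the mutant and 5.27 CPM in the control library, as was Gabrg3 at 1.57 and 2.79 CPM. Markers of other cells differed in the same class: granule neuron markers summed to 2292 CPM in the mutant and 1914 CPM in the control library, with 10 of 10 higher, astroglia markers to 408 and 439 CPM, with 9 of 11 lower, and erythroid markers to 44.4 and 9.05 CPM. Their part in the ratios was not tested.

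**Figure D4:**
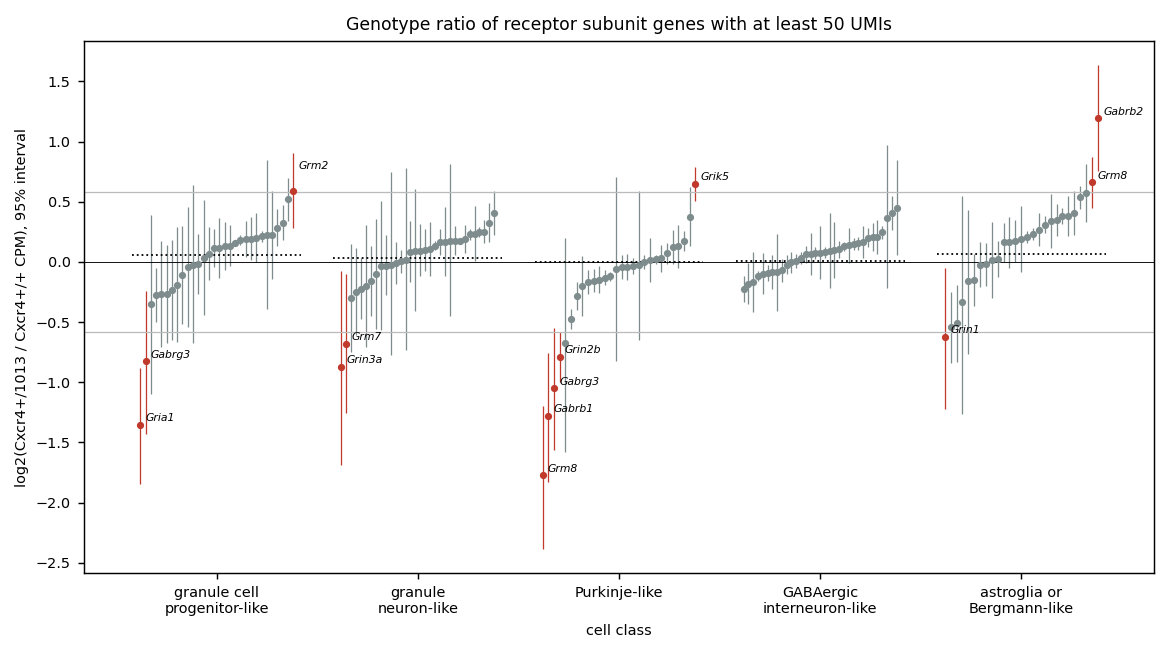
Ratio of the Cxcr4+/1013 to the Cxcr4+/+ library for members with at least 50 UMIs in 5 classes, as log2 with 95% intervals for counting error. Red points passed 1.5-fold (grey lines) with an interval that leaves out 1, and dotted lines are the median over all genes of the class. Most members lie between the grey lines in all 5 classes, and no interneuron-like point is red.

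In Purkinje-like cells 6 of 32 members passed, against 5.35% of all genes. Grik5 (GluK5), the high-affinity kainate subunit that joins GluK1 to GluK3, was at 70.3 CPM in the mutant and 44.8 CPM in the control library, a ratio of 1.57 (1.42 to 1.73), and 369 of 431 mutant and 338 of 502 control cells held a UMI of it. Of the 5 lower members, Grm2 had an interval that reached past 1. All 5 had higher levels in other classes. Grik5 had no separated higher class in the mutant library, where nuclear or midbrain-like neurons had 72.8 CPM against 70.3 CPM in Purkinje-like cells. Its highest control class, midbrain-type GABAergic-like neurons, had 51.1 CPM against 44.8 CPM in Purkinje-like cells. Grin2b was led by granule neuron-like cells, at 688 CPM in the mutant and 587 CPM in the control library. In Purkinje-like cells it was at 20.8 CPM in the mutant and 35.9 CPM in the control library (0.58, 0.50 to 0.67). Grm8 was at 2.15 CPM in the mutant and 7.35 CPM in the control library, and Gabrg3 at 3.36 and 6.96 CPM. Gabrb1 was at 2.89 CPM in the mutant and 7.02 CPM in the control library, where 1 cell held 26.2% of its UMIs. Interneuron markers summed to 446 CPM in mutant and 473 CPM in control Purkinje-like cells, and astroglia markers to 154 and 185 CPM, with 6 of 8 and 9 of 11 markers lower in the mutant. Nuclear or midbrain neuron markers summed to 42.4 CPM in the mutant and 31.5 CPM in the control library, with 7 of 8 higher, and granule progenitor markers to 59.1 and 46.2 CPM, with 5 of 7 higher. Their part in the receptor ratios was not tested. Nor was that of the mixture of clusters. A shallow cluster (median 4416 UMIs per cell, against 36610 in the main cluster) made up 31 of 431 mutant and 84 of 502 control cells. Gabbr2 and Grm7, both highest in Purkinje-like cells, did not pass, nor did Gria1, at 326 CPM in both libraries.

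In astroglia-like cells 3 of 29 members passed, against 6.03% of all genes. Gabrb2 had 15.3 CPM in the mutant and 6.68 CPM in the control library (ratio 2.29, 1.69 to 3.11), and Grm8 had 52.6 and 33.2 CPM (1.58, 1.37 to 1.83). Grin1 was lower, at 5.09 CPM in the mutant and 7.84 CPM in the control library. The median log2 ratio was 0.17 over members and 0.06 over all genes. Within the larger Gdf10 cluster Gabrb1 was at 362 CPM in the mutant and 188 CPM in the control library and Gabra4 at 107 and 64.2 CPM. In the Gfap cluster Gabrb1 was at 225 CPM in the mutant and 183 CPM in the control library. The clusters made up unlike parts of the class, the smaller Gdf10 cluster being 49 of 470 mutant and 128 of 751 control cells.

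Grik5 and Gabbr1 had the same direction in every class. Grik5 was higher in the mutant library in 11 of 11 classes with at least 50 UMIs, with the interval above 1 in 10, and the log2 ratio lay between 0.21 and 0.98 with a median of 0.52. Ependymal-like cells had 27.0 CPM in the mutant and 13.7 CPM in the control library. Glutamatergic nuclear or midbrain-like neurons had 72.8 CPM of Grik5 in the mutant and 46.4 CPM in the control library. Granule progenitor-like cells had 26.3 and 18.4 CPM, and interneuron-like cells 51.0 and 38.5 CPM. The smallest ratio was in midbrain-type GABAergic-like neurons, at 59.1 CPM in the mutant and 51.1 CPM in the control library. Split further, Grik5 was higher in 25 of 25 clusters, in 10 of 10 classes of female cells and in 9 of 9 classes of male cells. Gabbr1 was higher in 13 of 13 classes, with the interval above 1 in 8, but by less: its log2 ratio was 0.10 to 0.44. Gabbr1 was higher in 27 of 27 clusters, in 12 of 12 classes of female cells and in 10 of 11 classes of male cells. Of the 9479 genes measured in at least 9 classes, 3.72% were higher in every class in the mutant library, against 3 of 25 members (12%), and 2.45% were lower in every class, against 0 members. A median log2 ratio as large as that of Grik5 was reached by 0.981% of those genes. All classes of a genotype come from 1 library, so agreement across classes is not replication.

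**Figure D5:**
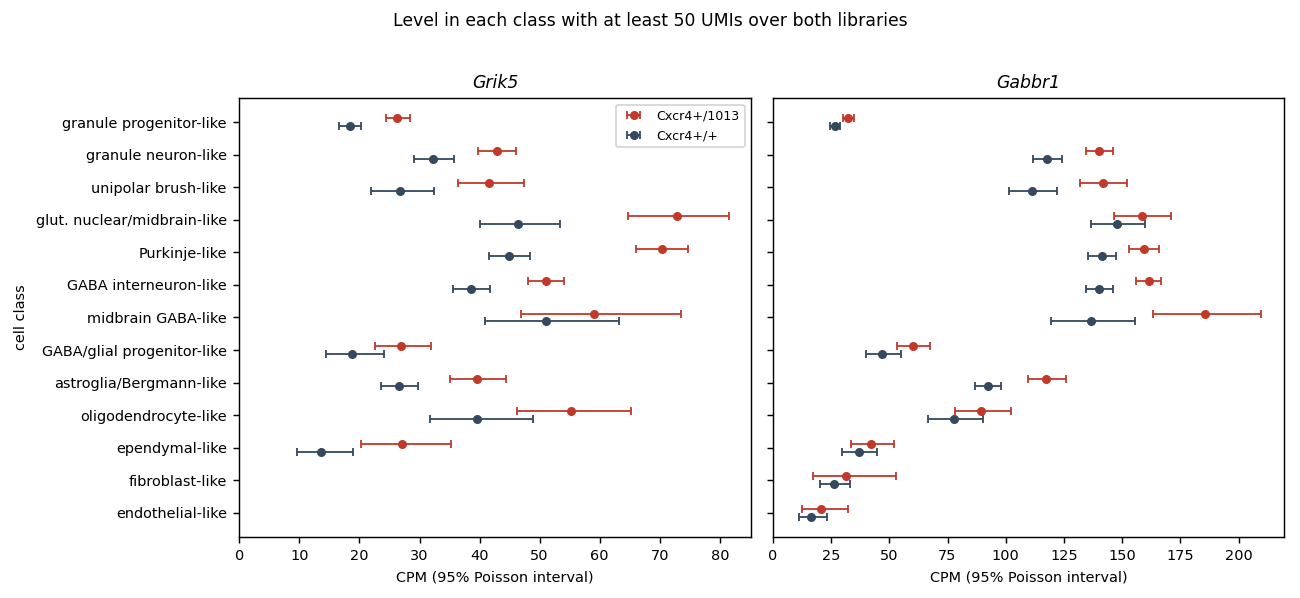
Levels of Grik5 (left) and Gabbr1 (right) in CPM with 95% Poisson intervals in each class with at least 50 UMIs, with the Cxcr4+/1013 library in red above the Cxcr4+/+ library in blue. Red lies to the right of blue in all 11 classes for Grik5 and in all 13 classes for Gabbr1.

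Other classes were read by the same fold after their values were seen. In unipolar brush-like cells 10 of 32 members passed (5.55% of genes), 1 higher and 9 lower in the mutant. The higher one was Grik5 (41.6 CPM in mutant, 26.8 CPM in control). Gria3 was at 6.84 CPM in the mutant and 39.5 CPM in the control library, a ratio of 0.17 (0.12 to 0.25), and Grik3 at 2.34 and 15.5 CPM. Grm7 was at 35.8 CPM in the mutant and 75.8 CPM in the control library. Grm3 was at 23.2 CPM in the mutant and 40.8 CPM in the control library, but its log2 ratio turned to 0.20 when more doublets were removed. Markers of other cells differed in both directions. The 8 interneuron markers summed to 32.1 CPM in the mutant and 134 CPM in the control library, each lower in the mutant. The 11 astroglia markers summed to 146 and 242 CPM, again each lower. Granule neuron markers summed to 3101 CPM in the mutant and 2517 CPM in the control library, with 7 of 10 higher. Granule progenitor markers summed to 138.5 and 115.6 CPM, with 3 of 7 higher. Their part in the ratios was not tested. Grm8 and Gria2, both highest in unipolar brush-like cells, did not pass.

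In glutamatergic nuclear or midbrain-like neurons 7 of 36 members passed (8.3% of genes). Grm5 had 976 CPM in the mutant and 541 CPM in the control library (ratio 1.80, 1.71 to 1.90) and Grik2 had 653 and 356 CPM (1.83, 1.72 to 1.95). Gria1 was lower, at 93.6 CPM in the mutant and 151 CPM in the control library, as was Grin2a at 40.6 and 71.1 CPM. The class held different numbers of female and male cells in the libraries. In female cells (313 mutant, 260 control) Grm5 was at 1008 CPM in the mutant and 560 CPM in the control library. In male cells (22 mutant, 102 control) Grm5 was at 456 and 478 CPM, Grik2 at 184 and 300 CPM and Grin2a at 91.8 and 65.9 CPM, so these 3 ratios turned direction there. The part of the cells' sex in the pooled ratios was not tested.

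In ependymal-like cells 6 of 19 members passed (6.95% of genes), and Grik2 was at 189 CPM in the mutant and 86.1 CPM in the control library. In female cells alone the log2 ratio of Grik2 was -0.10. Granule neuron markers summed to 483 CPM in mutant and 336 CPM in control ependymal-like cells, with 10 of 10 higher, and median depth was 13736 and 5480 UMIs per cell. The part of either in the ratios was not tested. Grin2b in the same class was at 29.0 CPM in the mutant and 9.48 CPM in the control library, but 1 cell held 44.8% of the mutant UMIs. In oligodendrocyte lineage-like cells 4 of 25 passed (6.55% of genes), among them Gabra2 at 27.4 CPM in the mutant and 16.8 CPM in the control library and Gabrb2 at 24.9 and 41.4 CPM. Neuronal markers differed in this class too. Interneuron markers summed to 109.9 CPM in the mutant and 69.2 CPM in the control library, with 5 of 8 higher. Granule neuron markers summed to 296 and 249 CPM, with 8 of 10 higher. Nuclear or midbrain neuron markers summed to 352 CPM in the mutant and 330 CPM in the control library, but 5 of 8 were lower. All 7 unipolar brush cell markers were higher as well, at 95.2 CPM in the mutant and 77.4 CPM in the control library. Their part in the ratios was not tested.

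Genes that work with these receptors were taken from lists of 45 genes: AMPA auxiliary subunits and scaffolds, kainate partners, mGlu scaffolds, inhibitory scaffolds and trafficking genes, RNA editing enzymes and chloride transporters. None of the 45 passed 1.5-fold in Purkinje-like cells (5.35% of all genes), and 0 of 44 did in interneuron-like cells (4.07% of genes). In granule progenitor-like cells Slc12a5, the neuronal chloride exporter KCC2, was lower among 41 measured, at 1.80 CPM in the mutant and 2.93 CPM in the control library. In granule neuron-like cells Neto1, a kainate and NMDA receptor auxiliary protein, was higher among 41, at 5.44 CPM in the mutant and 3.21 CPM in the control library. In astroglia-like cells Shank1, a postsynaptic scaffold, was higher among 40, at 5.51 CPM in the mutant and 3.21 CPM in the control library. Over all genes, 4.51% passed in granule progenitor-like cells, 4.47% in granule neuron-like cells and 6.03% in astroglia-like cells.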

How the data were processed

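The authors deposited raw UMI counts per gene and barcode for 2 libraries. Per the submitters' processing notes, the tools were bcl2fastq 2.20.0.4222 and Cell Ranger 7.2 and the build was mm10. Intron counting and the annotation release are not given in the sources used here. Of 9551 mutant and 9586 control barcodes, 8194 and 8353 had 500 genes or more and no more than 10% mitochondrial UMIs, and the barcodes with the highest Scrublet scores were removed as doublets at a rate of 0.8% per 1000 barcodes. Kept cells held 111099886 mutant and 101241904 control UMIs.

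Python 3.11.15 with scanpy 1.11.5, scipy 1.17.1, scikit-learn 1.9.0 and leidenalg 0.10.2 clustered both libraries together on 2000 variable genes without the members (30 components, 15 neighbours, resolution 1). A cluster was named from at least 3 detected markers. UMIs were summed per class and library and scaled to CPM. Intervals are exact Poisson for levels, conditional binomial for ratios and Clopper-Pearson for shares, and shares of UMIs are not independent of free RNA. Gates used UMIs of Atoh1, Mki67, Top2a, Cntn2 and Nhlh1.

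Genes were named across classes when both libraries had the same leading class with at least 20 CPM. Within a class they were named when they had at least 50 UMIs, passed 1.5-fold and had an interval that left out 1. Some members are not reported here. Genes named outside these rules were chosen after their values were seen, and all members and lists were chosen with earlier results of these data known. The calling of ratios was tested on simulated data. Scaling by TMM (edgeR 4.0.16) and size factors (DESeq2 1.42.0, R 4.3.3), stricter cell filters, other doublet settings, marker gates in place of clusters, female or male cells alone and other UMI minimums were tried as alternatives. Neighbouring genes and overlaps came from the GENCODE annotation, and promoters from RefSeq.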

Additional observations from a re-analysis of the deposited data

Results flagged for a closer look

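A few receptor genes had genotype ratios of opposite direction in different classes, each past 1.5-fold in both, and these differences were not tested because there is 1 library per genotype. Values are log2 of mutant over control. Gria3 was at 1.11 in ependymal-like cells and -2.53 in unipolar brush-like cells, a difference of 3.65. The ependymal-like value rested on 41 mutant UMIs in 14 cells and 25 control UMIs in 19 cells. The unipolar brush-like value rested on 38 mutant and 158 control UMIs. Interneuron markers in that class summed to 32.1 CPM in the mutant and 134 CPM in the control library. Grm8 was at 0.66 in astroglia-like cells and -1.77 in Purkinje-like cells, a difference of 2.44. Grin2b was at 1.61 in ependymal-like cells, where 1 cell held 44.8% of the mutant UMIs, and -0.79 in Purkinje-like cells, a difference of 2.40. Grik2 was at 1.13 in ependymal-like cells and -1.08 in endothelial-like cells, a difference of 2.21. In female ependymal-like cells alone Grik2 was at -0.10. The endothelial-like value rested on 20 mutant and 89 control UMIs, and 1 cell held 6 of the 20 and 1 cell 24 of the 89. Gabrb2 was at 1.19 in astroglia-like cells and -0.73 in oligodendrocyte lineage-like cells, a difference of 1.92. Grin3a was at 0.75 in ependymal-like cells and -0.87 in granule neuron-like cells, a difference of 1.62. The granule neuron-like value rested on 25 mutant and 32 control UMIs and was 0.88 in male cells alone.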

How the results depend on the processing

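No paired analysis was possible because each genotype had 1 library. The leading class was the same in both libraries for 31 members, and this count stayed within 1.5 times under all 8 alternatives. Among subunit shares, 17 moved under an alternative and 13 stayed the same. For levels in the last gate over the dividing gate, 23 values moved, 2 turned direction and 53 stayed the same. Of the counts of members past 1.5-fold, that of granule progenitor-like cells (4) was 2 with more doublets removed, with TMM, with DESeq2 size factors and with a minimum of 200 UMIs, and 8 with a minimum of 1 UMI. The granule neuron-like count (3) was 1 under the strict filter (1000 genes, 5% mitochondrial) and in female cells, 8 with a minimum of 1 UMI and 0 with 200. The Purkinje-like count (6) was 2 in female cells and with 200 UMIs, and 11 with 1 UMI. The interneuron-like count (0) was 1 under the strict filter and without doublet removal, and 7 with 1 UMI. The astroglia-like count (3) was 5 with marker gates, 10 with 1 UMI and 1 with 200. With a minimum of 1 UMI, the share of all genes past 1.5-fold was 17.4% in interneuron-like cells, 18.02% and 19.5% in granule neuron-like and granule progenitor-like cells, 20.9% in Purkinje-like cells and 22.98% in astroglia-like cells, and with 200 UMIs it was between 1.64% and 2.44%. Under the other settings named here for these counts the share of all genes was between 3.95% and 7.03%. Settings not named here reached 22% in Purkinje-like cells (strict filter) and 9.31% in astroglia-like cells (female cells). The count in the Atoh1 gate without mitotic UMIs (13) was 2 in the progenitor-like class, 8 in the granule neuron-like class, 0 with at least 2 Atoh1 UMIs and 7 in female cells, where 9.75%, 25.1%, 12.8% and 19.1% of all genes passed.

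The members' median log2 ratio moved in granule progenitor-like cells to 0.22 with marker gates and 0.20 in male cells, in granule neuron-like cells to 0.18 in male cells, and in Purkinje-like cells to -0.42 under the strict filter, which left 49 mutant and 106 control cells. Among all genes past 1.5-fold, the share higher in the mutant was 72.1% in granule progenitor-like cells, against 61.5% with TMM and 62.2% with DESeq2, and 64.7% in astroglia-like cells, against 48.4% and 47.8%.

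Some log2 ratios turned direction. In male cells they were -0.71 for Grik2, 0.48 for Grin2a and -0.066 for Grm5 in glutamatergic nuclear or midbrain-like neurons, -0.79 for Glra2 in GABAergic or glial progenitor-like cells, 0.88 for Grin3a in granule neuron-like cells, and 0.11 for Grm3 in unipolar brush-like cells. Grm3 there was 0.20 with more doublets removed. In female ependymal-like cells Grik2 was -0.10 and Grin2b -1.58. In the Atoh1 gate without mitotic UMIs, the ratios were -1.41 for Grin2b and -1.91 for Grin1 in progenitor-like cells alone, and -1.01 for Grin1 with at least 2 Atoh1 UMIs. After thinning to equal depth, Gabrb2 in the last gate over the dividing gate was -0.15 in the mutant and -0.77 in the control library. The leading class, as log2 of its level over the next, changed under the strict filter for Grin1 (-0.17), Glrb (-0.20), Gabbr2 (-0.022), Grin3a (-0.28) and Grik4 (-0.38), with marker gates for Glrb (-0.082), in female cells for Glrb (-0.18), Gabra2 (-0.063), Gria1 (-0.029) and Grik1 (-0.13), in male cells for Grin1 (-0.040), and without doublet removal for Gria1 (-0.014). The causes were not tested. Depth limits genes of few UMIs, and 1 library per genotype limits every ratio.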
